A study of Mus musculus with 19 samples.

Results

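Fibroblasts of the tumour-bearing mouse peritoneum were compared between the end stage of tumour growth and day 28, across every gene with enough counts. The comparison used 9 of the 19 libraries of the series, 4 from end stage and 5 from day 28, chosen by their labelled stage. End stage fibroblasts came from C57BL/6 mice carrying Col1a1-YFP, a yellow fluorescent protein driven by the gene of a type I collagen chain, after intraperitoneal injection of ID8-tdTomato cells, a red-labelled mouse ovarian carcinoma line, in 200 µL of PBS. Day 28 fibroblasts came from mice of the same transgenic strain 28 days after the same injection. The labels do not state the day of the end stage. Both groups were sorted as fibroblasts from dissociated peritoneum, so the cells sampled were those in which the Col1a1 reporter was active. The series also holds 5 libraries each from PBS-injected normal peritoneum and from day 7, which are used here to place the levels and to estimate the spread. Each library is labelled as 1 biological replicate, numbered 2 to 5 at end stage and 1 to 5 at day 28.

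Fibroblasts build and remodel the extracellular matrix. In wound repair and in tumour stroma they can take on an activated state, in which they secrete collagens, elastin and proteoglycans, cross-link them with lysyl oxidases, assemble contractile actin bundles and release proteases, protease inhibitors, complement proteins and chemokines. Resting fibroblasts of many organs carry the surface sialomucin CD34, and activated stroma is known to carry less of it. The peritoneum is the tissue on which ovarian carcinoma cells settle when they spread in the abdominal cavity.

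The libraries were made by MARS-seq, which counts tags at the 3′ ends of polyadenylated RNA, and were shallow. Total counts ran from 113163 to 2449339 at end stage and from 66061 to 400488 at day 28, with end stage replicate 4 the deepest and day 28 replicate 1 the shallowest of all 19. Of 12799 genes, 5980 were tested, and levels are given in CPM, counts scaled to 1 common library total after TMM, a method that corrects libraries for differences in composition. On a principal component analysis, day 28 replicates 1 and 2 stood apart, the first at −46.6 on the first component (all others −10.9 to 12.8) and the second at 35.3 on the second. They were also the shallowest libraries of the series, with 66061 and 83998 counts, and the part of depth in their place was not tested. Summed markers of fibroblast identity reached 35770.0 to 43570.0 CPM at end stage and 24360.0 to 55310.0 CPM at day 28, and all 10 markers were detected.

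End stage fibroblasts had 23 genes called higher and 1 called lower than day 28 fibroblasts, called meaning an adjusted p under 0.05 in edgeR (quasi-likelihood test, Benjamini-Hochberg over all tested genes). These are 0.385% and 0.0167% of the genes tested, 0.401% in all. The genes called higher included the cross-linking enzyme gene Lox, the network collagen gene Col8a1, the proteoglycan gene Bgn, the elastin gene Eln, the thrombin receptor gene F2r, the protease inhibitor genes Serpina3n and Serpine2, the complement gene Cfb and the chemokine gene Cxcl14. Cd34 was the gene called lower. Calls are by edgeR wherever no other tool is named, and a value given with ± and no unit after a gene is its log2 fold change, end stage over day 28, with its SE. The log2 fold changes ran from 1.03 to 3.88 for the genes called higher, and the median over all tested genes was -0.01, with 49.5% of them positive. In a bulk library of sorted cells, a change in the share of one kind of fibroblast and a change in RNA per cell cannot be told apart.

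**Figure D1:**
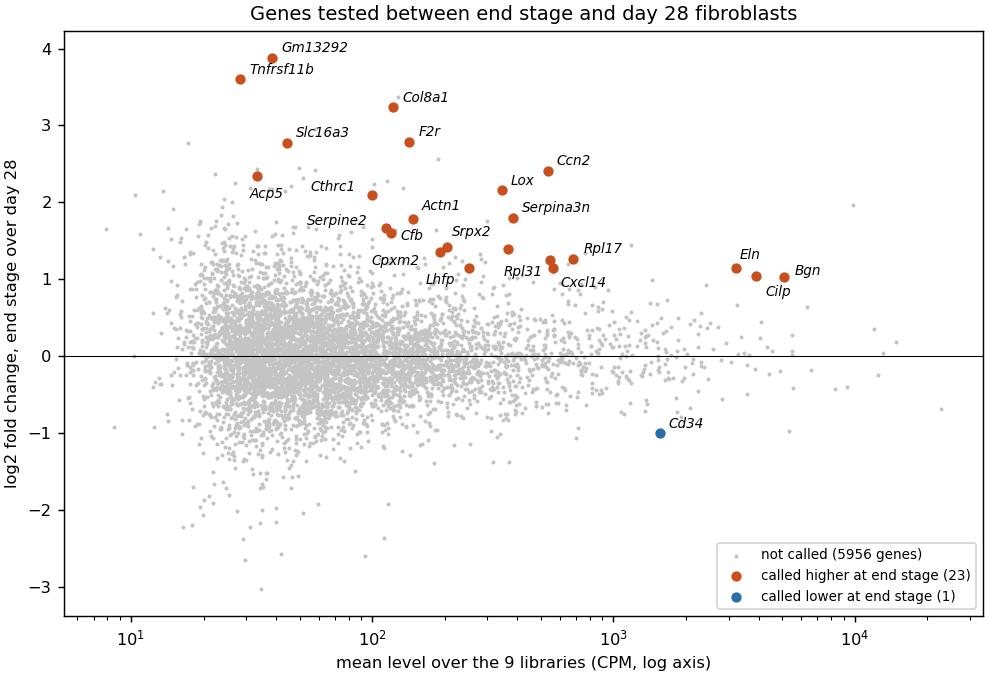
Log2 fold change of end stage over day 28 fibroblasts (vertical axis) against the mean level over the 9 libraries in CPM (horizontal log axis), 1 point for each of the 5980 tested genes. The 23 genes called higher (orange) lie between 1.03 and 3.88 and are spread over low and high levels, and Cd34 (blue), at -1.004, is called lower.

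How many genes were called rested on single libraries. The 4 end stage libraries lay above all 5 day 28 libraries in 136 genes (2.27% of those tested) and below all of them in 50 genes (0.836%), 3.11% in all. At an unadjusted p under 0.05, 367 genes were higher (6.14%) and 214 lower (3.58%), 9.72% in all. Without end stage replicate 4, 5 genes were called higher, namely Lox, F2r, Col8a1, Serpina3n and Cfb, and none lower (edgeR), while without end stage replicate 3 the counts were 44 higher and 9 lower. Without end stage replicate 2 they were 35 and 2, and without end stage replicate 5 they were 14 and 0. Leaving out day 28 replicates 1 to 5 in turn gave 12, 16, 7, 10 and 13 genes higher, with 1, 0, 0, 0 and 1 lower. Lox, F2r, Col8a1 and Serpina3n were called in all 9 of these fits, and no called gene changed sign in any of them. Without day 28 replicates 1 and 2 together, left out after their place in the principal component analysis was seen, 10 genes were called higher and 0 lower (edgeR), 9 of them among the 24.

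Lox (ENSMUSG00000024529) encodes lysyl oxidase, the secreted copper enzyme that oxidises lysines of collagen and elastin so that the fibres become cross-linked. It stood at 513, 449, 1089.8 and 339 CPM in end stage libraries, against 175, 178, 124, 70.3 and 155 CPM in day 28 libraries. Every end stage library lay above every day 28 library, and end stage replicate 4 was the highest. Its log2 fold change was 2.16 ± 0.30 (SE, 95% interval 1.55 to 2.76), and the adjusted p, 0.000126 by edgeR, was the smallest of all genes. Lox kept its call under all 22 alternative edgeR, DESeq2 and limma fits, leave-one-out fits included. Over the 4 stages it averaged 279 CPM in normal, 277 CPM in day 7, 141 CPM in day 28 and 598 CPM in end stage libraries, so the day 28 mean was the lowest of the 4 and the end stage mean the highest. The list of collagen cross-linking and hydroxylation enzymes, which includes the other lysyl oxidases, lysyl hydroxylases and prolyl hydroxylases, had 20 tested members, of which Lox was the 1 called. The other 19 were not called, and the median of the list was 0.09.

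Col8a1 (ENSMUSG00000068196), the α1 chain of type VIII collagen, a short-chain collagen that forms networks around vessels and in remodelling tissue, had the next matrix change. It stood at 148, 164, 513 and 147 CPM in end stage libraries, against 15.9, 35.6, 31.0, 16.2 and 30.6 CPM in day 28 libraries. These day 28 values rested on 1, 3, 5, 3 and 12 counts in replicates 1 to 5, so the size of the difference is uncertain. In day 28 replicate 1, the shallowest, 3 counts amount to 47.7 CPM, which is under every end stage value. The groups did not overlap, and end stage replicate 4 lay far above the other 3 end stage libraries, which were close to each other. The fitted log2 fold change was 3.24 ± 0.49 (95% interval 2.25 to 4.23, adjusted p 0.000299, edgeR). Without end stage replicate 4 it was 2.52, still called, while limma-voom with quality weights did not call the gene. It averaged 40.3 CPM in normal, 59.9 CPM in day 7, 25.9 CPM in day 28 and 243 CPM in end stage libraries. The gene was the 1 called of 8 tested members of the list of collagens outside the fibrillar class.

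**Figure D2:**
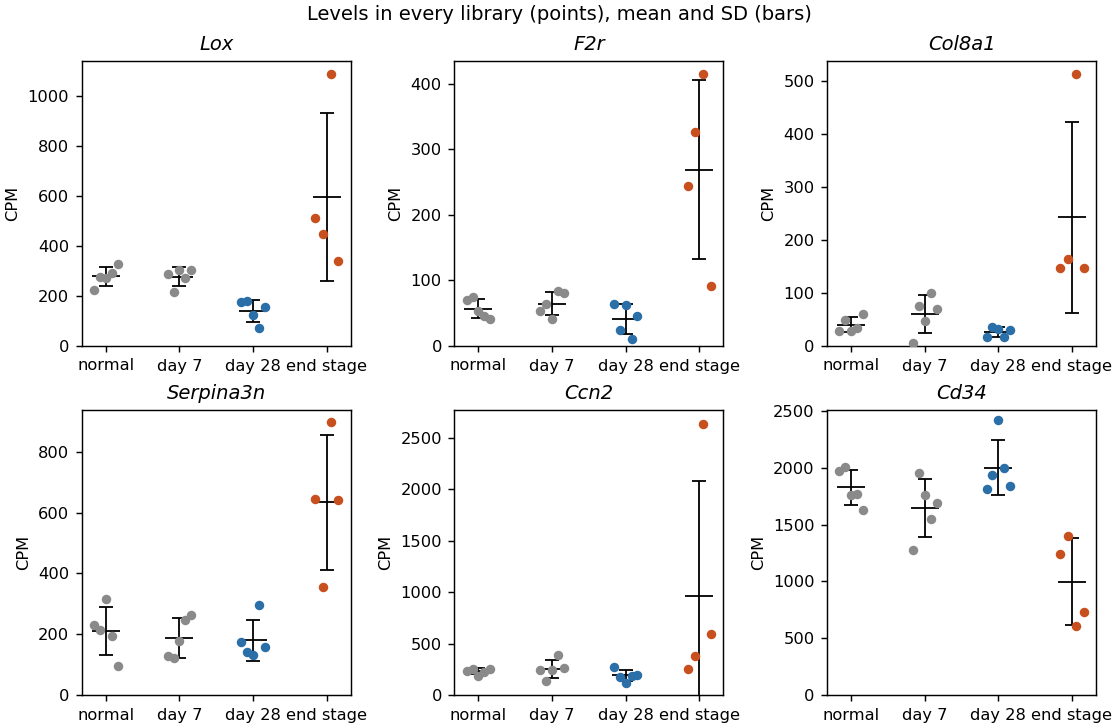
CPM of 6 genes in every library (points) with mean and SD (bars; the lower end of the SD bar of Ccn2 at end stage lies below 0 and is cut by the axis), in normal, day 7, day 28 (blue) and end stage (orange) fibroblasts, each vertical axis linear from 0. Lox, F2r, Col8a1 and Serpina3n are higher in all 4 end stage libraries than in all 5 day 28 libraries, the spread of Ccn2 at end stage comes from replicate 4, and Cd34 is lower in all 4 end stage libraries than in all 5 day 28 libraries.

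F2r (ENSMUSG00000048376) encodes protease-activated receptor 1, the main thrombin receptor of fibroblasts, which thrombin switches on by cutting its extracellular end. It stood at 244, 326, 414 and 91.6 CPM in end stage libraries, against 63.6, 23.7, 62.0, 10.8 and 45.9 CPM in day 28 libraries. No end stage library overlapped the day 28 range, and end stage replicate 5, on 10 counts, came closest to it. Day 28 replicates 1 to 5 had 4, 2, 10, 2 and 18 counts, so which of them was lowest is uncertain. On the log2 scale the change was 2.79 ± 0.40 (95% interval 1.98 to 3.61, adjusted p 0.000147, edgeR). With the filter set to a minimum count of 30, F2r did not pass the filter, so it was not tested there. Normal libraries averaged 56.9 ± 14.5 CPM and day 7 libraries 64.3 ± 17.8 CPM (SD, n = 5 each), so the 3 earlier stages lay close together.

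Serpina3n (ENSMUSG00000021091), a secreted serine protease inhibitor of the acute-phase response, stood at 643, 354, 897 and 641 CPM in end stage libraries, against 175, 142, 130.2, 297 and 158 CPM in day 28 libraries. All end stage values were higher than all day 28 values, and day 28 replicate 4 was well above the other day 28 libraries. This corresponded to a log2 fold change of 1.80 ± 0.32 (adjusted p 0.00347, edgeR). Without the 3 libraries under 150000 counts, the log2 fold change of Serpina3n was 1.71 and missed the threshold (adjusted p 0.0838).

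The promoter windows of F2r, Col8a1 and Serpina3n, called in every leave-one-out fit, and of Cd34 were read from RefSeq on build GRCm38.p6, from 250 bases before to 50 bases after the gene's start, to show what stretches of known motifs they hold. RefSeq windows matched 15 of the 24 called genes by symbol. They are printed 5′ to 3′ on the gene's strand, in lower case, with matches to the searched motifs in capitals. F2r lies at chr13:95618417-95618716 on the minus strand, Col8a1 at chr16:57754688-57754987 on the minus strand, Serpina3n at chr12:104406458-104406757 on the plus strand, and Cd34, shown as the gene called lower, at chr1:194938571-194938870 on the plus strand.
F2r: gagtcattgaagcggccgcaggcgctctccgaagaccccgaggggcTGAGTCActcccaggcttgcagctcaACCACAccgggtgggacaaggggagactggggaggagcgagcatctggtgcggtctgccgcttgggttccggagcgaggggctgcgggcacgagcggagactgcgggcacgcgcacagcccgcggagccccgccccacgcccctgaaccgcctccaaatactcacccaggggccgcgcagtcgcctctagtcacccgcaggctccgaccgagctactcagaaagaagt
Col8a1: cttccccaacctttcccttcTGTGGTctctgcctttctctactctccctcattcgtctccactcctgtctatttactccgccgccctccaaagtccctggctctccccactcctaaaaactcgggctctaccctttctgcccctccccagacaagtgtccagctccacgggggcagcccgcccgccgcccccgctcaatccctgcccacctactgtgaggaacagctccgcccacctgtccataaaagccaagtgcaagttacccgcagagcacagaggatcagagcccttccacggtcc
Serpina3n: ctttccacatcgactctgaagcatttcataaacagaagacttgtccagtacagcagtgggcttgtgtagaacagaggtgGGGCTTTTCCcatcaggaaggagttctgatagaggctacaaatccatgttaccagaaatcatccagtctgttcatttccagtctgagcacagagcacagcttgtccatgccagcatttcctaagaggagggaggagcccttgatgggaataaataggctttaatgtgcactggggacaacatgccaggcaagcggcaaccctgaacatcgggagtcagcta
Cd34: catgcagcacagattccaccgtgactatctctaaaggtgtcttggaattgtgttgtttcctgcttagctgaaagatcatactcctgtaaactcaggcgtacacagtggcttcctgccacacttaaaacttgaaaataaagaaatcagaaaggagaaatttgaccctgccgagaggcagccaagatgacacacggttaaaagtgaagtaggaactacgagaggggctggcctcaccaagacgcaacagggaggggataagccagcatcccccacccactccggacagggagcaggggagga
The motifs, searched on both strands, were TGANTCA for AP-1, GGAATG for TEAD factors, TGTGGT for RUNX factors, TATAAA for the TATA box and a 10-base NF-kB consensus, whose letters are the capitals of the Serpina3n window with any base at the fourth and the fifth positions. F2r held an AP-1 match at position −204 and a RUNX match at −178 from the start, Col8a1 a RUNX match at −230 and Serpina3n an NF-kB match at −171, while these letters were not found in the Cd34 window. Over the 15 windows, AP-1 letters were present in 2 (7.93% of all 27025 windows hold them), TEAD letters in 1 (14.6%), RUNX letters in 3 (16.9%), NF-kB letters in 1 (1.62%) and TATAAA in 0 (14.2%). A match is a description of the letters and not a binding site.

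Other structural matrix genes were called with smaller changes. Bgn encodes biglycan, a small leucine-rich proteoglycan that binds collagen fibrils. It stood at 6835, 8256, 8026 and 5224 CPM in end stage libraries, against 4958, 3489, 2524, 3513 and 2947 CPM in day 28 libraries. Its groups did not overlap, with day 28 replicate 1 just under the lowest end stage library. The estimate on the log2 scale was 1.03 ± 0.22 (adjusted p 0.0222), and the call was lost without any 1 of end stage replicate 4 and day 28 replicates 3, 4 and 5 (adjusted p up to 0.199). Among the 10 tested proteoglycans of this class Bgn was the 1 called, and 6 of the 10 had negative log2 fold changes. They included Dcn, decorin, at 2511 to 4648 CPM at end stage and 2827 to 14998 CPM at day 28, with a log2 fold change of -0.97 ± 0.46 (adjusted p 0.513, not called). Podn, podocan, which had values without overlap, stood at 0.92 ± 0.24 (adjusted p 0.0839, not called).

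Eln, the gene of tropoelastin, the soluble unit of elastic fibres, stood at 3519, 3757, 5797 and 5453 CPM in end stage libraries, against 1812, 3857, 2021, 1729.5 and 1094 CPM in day 28 libraries. Day 28 replicate 2 lay above 2 of the 4 end stage libraries, so the groups overlapped. End stage over day 28, the log2 fold change was 1.15 ± 0.27 (adjusted p 0.0451), and the call was lost without any 1 of end stage replicates 4 and 5 and day 28 replicates 1, 3, 4 and 5 (adjusted p up to 0.293). Eln was the 1 called of 17 tested genes of elastic fibres and microfibrils, of which 12 had positive values, with a median of 0.30.

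Cilp, the cartilage intermediate layer protein, a secreted matrix protein, stood at 3842, 5359, 7822 and 4857 CPM in end stage libraries, against 3146, 3798, 1587, 2821 and 2011 CPM in day 28 libraries. Every end stage library was higher than every day 28 library, and the margin between replicate 2 of each group was narrow. Its log2 fold change was 1.04 ± 0.24 (adjusted p 0.0437), lost without any 1 of end stage replicates 4 and 5 and day 28 replicates 1, 3, 4 and 5 (adjusted p up to 0.403). Cilp and Lhfp, a gene of a membrane protein with 4 membrane passes, fell outside the rule for named genes and were named after their values were seen. Lhfp reached 244 to 480.2 CPM at end stage and 112 to 214 CPM at day 28, with a log2 fold change of 1.15 ± 0.26 (adjusted p 0.0382), lost without any 1 of end stage replicates 4 and 5 and day 28 replicates 1, 3, 4 and 5 (adjusted p up to 0.36).

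Cthrc1, collagen triple helix repeat containing 1, is a secreted glycoprotein made by activated fibroblasts. It stood at 141, 79.6, 346 and 119.1 CPM in end stage libraries, against 47.7, 47.5, 24.8, 48.6 and 43.3 CPM in day 28 libraries. Values of both groups were fully separate, with end stage replicate 4 the highest by a wide margin and day 28 replicate 3 the lowest. The day 28 values rested on 3, 4, 4, 9 and 17 counts in replicates 1 to 5. The fitted log2 fold change was 2.10 ± 0.44 (adjusted p 0.0214), lost without any 1 of end stage replicate 4 and day 28 replicates 3, 4 and 5 (adjusted p up to 0.403).

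Srpx2, a secreted sushi-repeat protein, and Cpxm2, a secreted protein related to carboxypeptidases, were both called higher. Srpx2 stood at 220.2, 298, 455 and 293 CPM in end stage libraries, against 79.5, 83.1, 143, 108.1 and 153 CPM in day 28 libraries, with no overlap between groups. On the log2 scale the change was 1.42 ± 0.31 (adjusted p 0.0222), lost without any 1 of end stage replicate 4 and day 28 replicates 1, 2, 3 and 4 (adjusted p up to 0.278). Cpxm2 stood at 268, 259, 372 and 257 CPM in end stage libraries, against 111.2, 131, 62.0, 118.9 and 143 CPM in day 28 libraries, where 3 of the end stage libraries lay within a narrow band and replicate 4 above it. This corresponded to a log2 fold change of 1.36 ± 0.29 (adjusted p 0.0222), lost without any 1 of end stage replicate 4 and day 28 replicates 1, 3 and 4 (adjusted p up to 0.246). The Srpx2 promoter window held an AP-1 match.

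Ccn2, connective tissue growth factor, a matricellular protein that binds growth factors and integrins, stood at 251, 382, 2632 and 596 CPM in end stage libraries, against 270.1, 178, 118, 189 and 191 CPM in day 28 libraries. End stage replicate 4 was more than 4 times as high as the next library, and end stage replicate 2 lay below day 28 replicate 1, so the groups overlapped. The log2 fold change of 2.41 ± 0.52 (adjusted p 0.0462) was lost without any 1 of end stage replicates 4 and 5 and day 28 replicates 1, 2, 3, 4 and 5 (adjusted p up to 0.278). Without end stage replicate 4 it was 1.13. Among the 16 tested matricellular proteins Ccn2 was the 1 called, 13 had positive values and the median was 0.30. Periostin, gene Postn, stood at 202 to 1069 CPM at end stage and 86.8 to 222 CPM at day 28 with a log2 fold change of 1.76 ± 0.44 (adjusted p 0.0839, not called). Tenascin C, gene Tnc, stood at 25.7 to 256 CPM at end stage and 0 to 47.5 CPM at day 28, with 2.95 ± 0.92 (adjusted p 0.217, not called), and Ccn3 had 1.02 ± 0.29 (adjusted p 0.124, not called).

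The major fibrillar collagens were not called. Col1a1, whose regulatory sequence drove the sorting reporter, stood at 2308, 2017, 2942 and 4518 CPM in end stage libraries, against 1605, 4652, 2430.5, 1248 and 1004 CPM in day 28 libraries. The groups overlapped and day 28 replicate 2 was the highest of all 9 libraries. The estimate on the log2 scale was 0.43 ± 0.38 (95% interval -0.35 to 1.22), and that of Col3a1 was 0.35 ± 0.25 (95% interval -0.15 to 0.85). Of 6 tested fibrillar collagens, 5 had positive values and 0 were called. Among the other collagens, Col12a1, which decorates fibrils, had 1.30 ± 0.45 (adjusted p 0.275, not called).

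Of the 13 tested genes of thrombin reception, coagulation and fibrinolysis, F2r and Serpine2 were called higher, 8 had positive values and the median was 0.43. Serpine2, protease nexin 1, a secreted inhibitor of thrombin and plasminogen activators, stood at 65.4, 167, 312 and 183 CPM in end stage libraries, against 95.3, 35.6, 80.6, 27.0 and 63.7 CPM in day 28 libraries. End stage replicate 2 lay below 2 day 28 libraries, so the groups overlapped. End stage over day 28, the log2 fold change was 1.66 ± 0.40 (adjusted p 0.0462), lost without any 1 of end stage replicates 4 and 5 and day 28 replicates 1, 2, 3, 4 and 5 (adjusted p up to 0.5). Of 9 tested metalloproteinases, tissue inhibitors and FAP, 0 were called. The inhibitor genes Timp1 and Timp2 had opposite signs, 1.53 ± 0.50 for Timp1 (adjusted p 0.223) and -0.49 ± 0.20 for Timp2 (adjusted p 0.36), and the Timp2 groups did not overlap.

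Cytoskeletal and metabolic genes were also among those called. Actn1, α-actinin 1, which bundles actin at contacts with the matrix, stood at 182, 139, 304 and 348 CPM in end stage libraries, against 47.7, 118.7, 86.8, 43.2 and 61.2 CPM in day 28 libraries. Every end stage value exceeded every day 28 value, and day 28 replicate 2 came closest to the end stage libraries. Its log2 fold change was 1.78 ± 0.39 (adjusted p 0.0222), lost without any 1 of end stage replicates 4 and 5 and day 28 replicates 1, 3, 4 and 5 (adjusted p up to 0.246). It was the 1 called of 21 tested genes of the contractile apparatus, of which 17 were positive, with a median of 0.28. Tagln, transgelin, had 1.28 ± 0.49 (adjusted p 0.356) and Acta2, smooth muscle actin, stood at 99.8 to 266 CPM at end stage and 55.8 to 189.9 CPM at day 28 with 0.67 ± 0.48 (adjusted p 0.711), neither of them called. Summed mural markers, genes of pericytes and smooth muscle, were 619 to 898 CPM at end stage and 391 to 826 CPM at day 28, and their part in these values was not tested.

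Slc16a3, the lactate exporter MCT4, stood at 65.4, 121, 79.1 and 82.5 CPM in end stage libraries, against 0, 0, 6.20, 37.8 and 7.65 CPM in day 28 libraries, and was covered by 0, 0, 1, 7 and 3 counts in day 28 replicates 1 to 5. Day 28 replicate 4 had the highest day 28 value. A count of 0 allowed up to 47.7 CPM in day 28 replicate 1 and 35.6 CPM in day 28 replicate 2, taking 3 counts as the limit. How far day 28 replicate 4 stood from these 2 libraries is therefore uncertain. On the log2 scale the change was 2.78 ± 0.64 (adjusted p 0.0382), lost without any 1 of end stage replicates 3, 4 and 5 and day 28 replicates 1, 2, 3 and 5 (adjusted p up to 0.23). Of 18 tested genes of hypoxia and glycolysis 0 were called.

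Several called genes act in immune or bone biology. Tnfrsf11b encodes osteoprotegerin, a secreted decoy receptor for the cytokine RANKL. It had 8, 14, 286 and 6 counts in end stage replicates 2 to 5, against 0, 0, 0, 0 and 5 counts in day 28 replicates 1 to 5. It stood at 27.5, 35.9, 125 and 55.0 CPM in end stage libraries and at 12.7 CPM in the 1 day 28 library with counts, and was at 0 in the other 4. The same limit of 3 counts in the shallow day 28 libraries exceeded 2 of the end stage values, so the size of the difference is uncertain, and the fitted log2 fold change of 3.61 ± 0.69 (adjusted p 0.0086) was lost without end stage replicate 4 (adjusted p 0.278). Over all fits the log2 fold change of Tnfrsf11b ran from 2.82 without end stage replicate 4 to 7.95 without day 28 replicate 5, where every day 28 library left is at 0 and the fitted value is no bound. At a minimum count of 30 and with the 2 groups alone, Tnfrsf11b did not pass the filter and was not tested. It was not called after thinning to 200000 counts. The call was also lost without the libraries under 150000 counts and without day 28 replicates 1 and 2. Normal libraries averaged 26.6 CPM and day 7 libraries 33.9 CPM.

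Cfb, complement factor B, which forms the convertase of the alternative pathway, stood at 213, 139, 153 and 266 CPM in end stage libraries, against 79.5, 35.6, 74.4, 70.3 and 51.0 CPM in day 28 libraries. No end stage library overlapped the day 28 range. This corresponded to a log2 fold change of 1.60 ± 0.32 (adjusted p 0.016), lost without any 1 of end stage replicate 5 and day 28 replicate 5 (adjusted p up to 0.0544). Of 12 tested complement genes, Cfb was the 1 called and 9 were positive. C4b, complement component 4b, had no overlap and stood at 0.96 ± 0.35 (adjusted p 0.316, not called), and Cd55, which blocks complement at the cell surface, was at -0.88 ± 0.30 (adjusted p 0.239, not called).

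Cxcl14, a chemokine made constitutively by epithelia and fibroblasts, stood at 585, 701, 949.6 and 989.7 CPM in end stage libraries, against 477, 344, 329, 378 and 306 CPM in day 28 libraries. Values of both groups were fully separate. The estimate on the log2 scale was 1.15 ± 0.25 (adjusted p 0.0222), lost without any 1 of end stage replicates 4 and 5 and day 28 replicates 2, 3, 4 and 5 (adjusted p up to 0.23). It was the 1 called of 8 tested chemokines, of which 7 were positive. Cxcl2, which attracts neutrophils, reached 7.70 to 165 CPM at end stage and 0 to 48.6 CPM at day 28 with 2.21 ± 0.87 (adjusted p 0.369), and Ccl2, which attracts monocytes, 15.4 to 169 CPM at end stage and 0 to 30.6 CPM at day 28 with 2.17 ± 0.93 (adjusted p 0.459), neither of them called. Cxcl12 was at 0.22 ± 0.27.

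In the acute-phase and interleukin 1 response list, 7 of 8 tested members were positive, Serpina3n was the 1 called and the median was 0.67. Saa3, a serum amyloid A protein of inflamed tissue, stood at 31.0, 51.3, 418 and 541 CPM in end stage libraries, against 0, 23.7, 49.6, 5.40 and 28.0 CPM in day 28 libraries. End stage replicates 4 and 5 were far above the rest, while end stage replicates 2 and 3 lay in or just above the day 28 range. End stage over day 28, the log2 fold change was 3.37 ± 0.91 (adjusted p 0.14, not called). Il1r1, the interleukin 1 receptor, had 1.53 ± 0.41 (adjusted p 0.0839), and Il6 stood at 2.57 to 64.1 CPM at end stage and 0 to 15.3 CPM at day 28 with 1.71 ± 0.86 (adjusted p 0.527), neither called. Tgfb1 was at 0.79 ± 0.46 (adjusted p 0.614, not called).

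Acp5, tartrate-resistant acid phosphatase, a lysosomal enzyme known from osteoclasts and macrophages, had 18, 17, 146 and 8 counts in end stage replicates 2 to 5, against 1, 0, 1, 5 and 3 counts in day 28 replicates 1 to 5. It stood at 61.9, 43.6, 63.8 and 73.3 CPM in end stage libraries, all above the day 28 libraries at 15.9, 0, 6.20, 27.0 and 7.65 CPM. In day 28 replicate 1, the shallowest, 3 counts amount to 47.7 CPM, which is above end stage replicate 3. The separation of the Acp5 groups is therefore uncertain. Its log2 fold change was 2.34 ± 0.54 (adjusted p 0.041), lost without any 1 of end stage replicates 2, 4 and 5 and day 28 replicates 1, 2, 3 and 5 (adjusted p up to 0.278). Summed macrophage markers were at 134, 174, 519.6 and 275 CPM in end stage libraries and 175, 11.9, 335, 59.5 and 86.7 CPM in day 28 libraries, with 14 of 16 markers in the table and none at 0 in all 9 libraries. C1qa, a complement subunit of macrophages, stood at 24.1 to 143 CPM at end stage and 0 to 68.2 CPM at day 28 with 1.58 ± 0.65 (adjusted p 0.378). The part of macrophage RNA in the values of Acp5, Cfb, Saa3 and the chemokines was not tested. The MHC class II genes Cd74 and H2-Ab1 had 1.32 ± 0.48 (adjusted p 0.316) and -0.57 ± 0.94 (adjusted p 0.903), with 0 of 4 tested members of that list called.

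Ribosomal protein genes were largely positive. Of 82 tested, 66 had a positive log2 fold change with a median of 0.37, 2 were called, and 26 had an unadjusted p under 0.05 on the higher side. Over all tested genes, 49.5% were positive, 0.385% were called higher and 6.14% were higher at an unadjusted p under 0.05. With each library left out in turn, 62 to 70 ribosomal protein genes were positive. Rpl31 stood at 801, 580.0, 1201 and 669 CPM in end stage libraries, against 286, 166, 440.2, 357 and 423 CPM in day 28 libraries, and its groups did not overlap. The fitted log2 fold change was 1.25 ± 0.27 (adjusted p 0.0222), lost without any 1 of end stage replicate 4 and day 28 replicates 1, 2 and 4 (adjusted p up to 0.278). Over the stages it averaged 623 CPM in normal, 665 CPM in day 7, 334 CPM in day 28 and 813 CPM in end stage libraries, so the day 28 mean stood lowest. Rpl17, at 616 to 1616 CPM at end stage and 285 to 540.4 CPM at day 28, had 1.27 ± 0.30 (adjusted p 0.0437), lost without any 1 of end stage replicates 4 and 5 and day 28 replicates 1, 2, 3, 4 and 5 (adjusted p up to 0.431). Both have processed copies in the genome, and how reads shared with such copies were counted is not stated in the labels or files, so their counts are uncertain. The predicted gene Gm13292, annotated in GENCODE M21 as a processed pseudogene and named after its values were seen, had 17, 59, 145 and 6 counts at end stage and 0, 0, 0, 2 and 3 at day 28, with a log2 fold change of 3.88 ± 0.82 (adjusted p 0.0222), lost without any 1 of end stage replicate 4 and day 28 replicates 1, 2, 3, 4 and 5 (adjusted p up to 0.102). The same uncertainty holds for its counts. Among 69 tested genes of oxidative phosphorylation 54 were positive, with a median of 0.31 and 0 called (15 higher and 0 lower at an unadjusted p under 0.05). With each library left out in turn, 48 to 57 of these were positive.

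**Figure D3:**
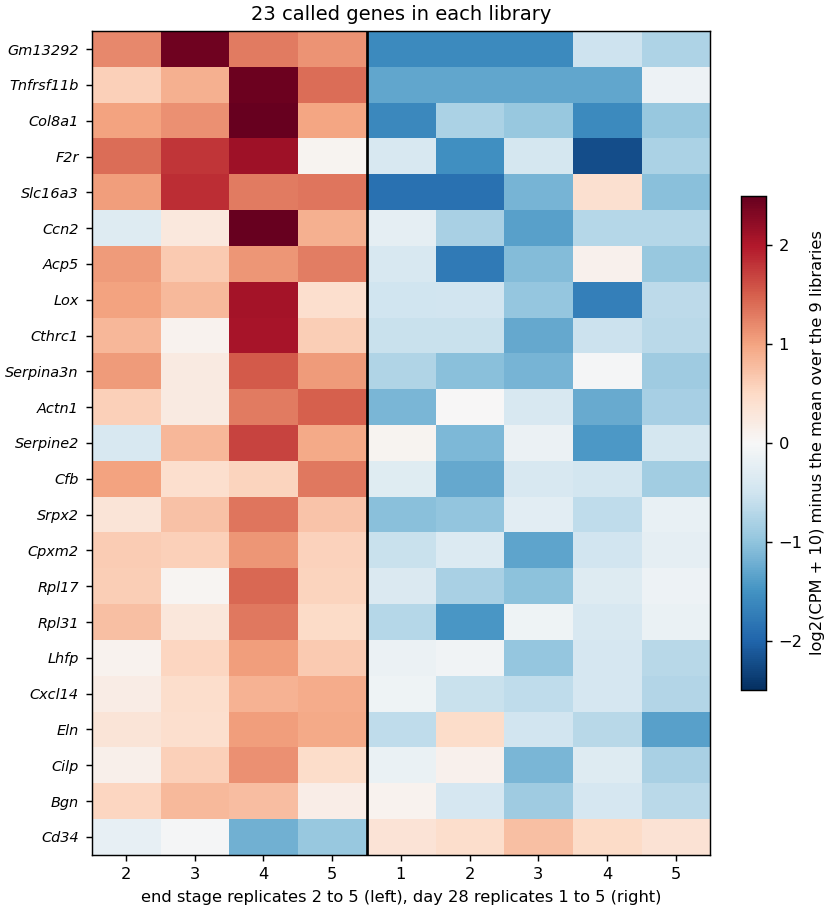
CPM of 23 of the called genes (top to bottom by log2 fold change) in the 4 end stage libraries (left of the line) and the 5 day 28 libraries (right), coloured by log2(CPM + 10) minus the mean over the 9 libraries; colours saturate at 2.5 in either direction. The genes above Cd34 are redder at end stage, most of them reddest in end stage replicate 4, and Cd34 (bottom) is bluer at end stage.

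Cd34 (ENSMUSG00000016494) encodes the surface sialomucin of resting and progenitor-like fibroblasts. It stood at 1242, 1401, 611 and 733 CPM in end stage libraries, against 1812, 1935, 2418, 1999.8 and 1843 CPM in day 28 libraries. All 4 end stage libraries lay below all 5 day 28 libraries, with end stage replicates 4 and 5 the lowest. On the log2 scale the change was -1.004 ± 0.23 (95% interval -1.47 to -0.54, adjusted p 0.0382, edgeR). The call was lost without any 1 of end stage replicates 4 and 5 and day 28 replicates 1, 2, 3, 4 and 5 (adjusted p up to 0.351), and the log2 fold change stayed between -1.23 and -0.81 under all fits. The Cd34 call was also lost with no filter, with the 2 groups alone, without the libraries under 150000 counts and without day 28 replicates 1 and 2. Over the stages Cd34 averaged 1828 CPM in normal, 1646 CPM in day 7, 2001 CPM in day 28 and 997 CPM in end stage libraries. Of 21 tested universal and progenitor fibroblast markers 15 had negative and 6 positive values, Cd34 was the 1 called, and the median was -0.33. At an unadjusted p under 0.05, 1 of them was higher and 6 were lower. Clec3b, tetranectin, stood at 1004 to 2097 CPM at end stage and 1994 to 2753 CPM at day 28 with -0.67 ± 0.21 (adjusted p 0.185), Gsn, gelsolin, had -0.69 ± 0.27 (adjusted p 0.356), and Pdgfra, the platelet-derived growth factor receptor α that marks fibroblasts, had -0.81 ± 0.36 (adjusted p 0.448). None of these 3 was called. Pdgfra is 1 of the 10 tested fibroblast identity markers, of which 6 were positive and 4 negative, with a median of 0.03 and 0 called. At an unadjusted p under 0.05, 0 of those 10 were higher and 2 lower.

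No growth arrest or feedback gene passed the threshold, and members with a low unadjusted p lay on both sides. Of 11 tested growth arrest genes linked to p53, 5 were positive and 6 negative, with a median of -0.03 and 0 called (1 higher and 1 lower at an unadjusted p under 0.05). Cdkn1a, the cell cycle inhibitor p21, stood at 547, 513, 379.7 and 458 CPM in end stage libraries, against 938, 902, 843, 881 and 941 CPM in day 28 libraries. All end stage values were lower than all day 28 values, and the day 28 values were close together. This corresponded to a log2 fold change of -0.93 ± 0.25 (adjusted p 0.088). Phlda3, a target of p53, had 0.72 ± 0.31 (adjusted p 0.41). Dusp1, a phosphatase that switches off stress kinases, stood at 1238, 1645, 1278 and 1256 CPM in end stage libraries, against 2161, 2338, 2214, 2119 and 2868 CPM in day 28 libraries, again without overlap, with -0.79 ± 0.21 (adjusted p 0.0784). Gadd45b, a stress-induced regulator of kinase signalling, stood at 423 to 1494 CPM at end stage and 285 to 632 CPM at day 28, with 1.20 ± 0.32 (adjusted p 0.0845). Errfi1, an inhibitor of the EGF receptor, had -1.38 ± 0.38 (adjusted p 0.13) and Rhob, a small GTPase, -0.68 ± 0.24 (adjusted p 0.281). Of 14 tested feedback regulators 10 were negative and 0 called (2 higher and 4 lower at an unadjusted p under 0.05). Of 9 tested immediate-early AP-1 factors 7 were negative and 0 called (1 lower at an unadjusted p under 0.05), with Fos at -0.40 ± 0.21 (adjusted p 0.569), and Egr1 stood at -0.16 ± 0.23 (adjusted p 0.877). The 20 tested immediate-early EGR, KLF, NR4A and related factors were split into 10 positive and 10 negative, with a median of -0.0016 and 0 called (3 higher and 2 lower at an unadjusted p under 0.05). Id3, an inhibitor of helix-loop-helix factors, had 0.87 ± 0.28 (adjusted p 0.199) and Ier3 0.82 ± 0.31 (adjusted p 0.356), while the Krüppel-like factor genes Klf4 and Klf6 had -0.73 ± 0.28 (adjusted p 0.351) and -0.55 ± 0.24 (adjusted p 0.413). Immediate-early genes are known to respond to tissue dissociation, for which the labels give 1 protocol.

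Genes induced by interferon were mostly negative. Of 25 tested, 24 had a negative log2 fold change, with a median of -0.40, against -0.01 over all tested genes, but 0 were called, and 7 had an unadjusted p under 0.05 on the lower side. Leaving out each library in turn gave 17 to 24 negative members. Irf9, part of the factor that turns on these genes, stood at 68.8, 107.8, 82.6 and 45.8 CPM in end stage libraries, against 111.2, 118.7, 186, 146 and 176 CPM in day 28 libraries. All end stage values lay below all day 28 values, and day 28 replicate 3 was the highest. The estimate on the log2 scale was -0.93 ± 0.36 (adjusted p 0.356). Cmpk2 and Usp18, both induced by interferon, had -1.34 ± 0.52 (adjusted p 0.356) and -1.25 ± 0.50 (adjusted p 0.359). Irf9 averaged 89.7 CPM in normal, 78.0 CPM in day 7, 148 CPM in day 28 and 76.2 CPM in end stage libraries. Cmpk2 averaged 21.4, 19.9, 59.3 and 25.7 CPM in the same order, so the day 28 mean was the highest for both. They were named for a low p, which favours a high day 28 mean, so these means are a description. All 11 tested genes of cholesterol and fatty acid synthesis were negative, with a median of -0.28 and 0 called (1 lower at an unadjusted p under 0.05). Leaving out each library in turn gave 8 to 11 negative members with medians from -0.438 to -0.141, and thinning every library to at most 200000 counts left 8 tested, of which 5 were negative. Scd2, a fatty acid desaturase, was the lowest by value at -0.85 ± 0.33 (adjusted p 0.356).

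**Figure D4:**
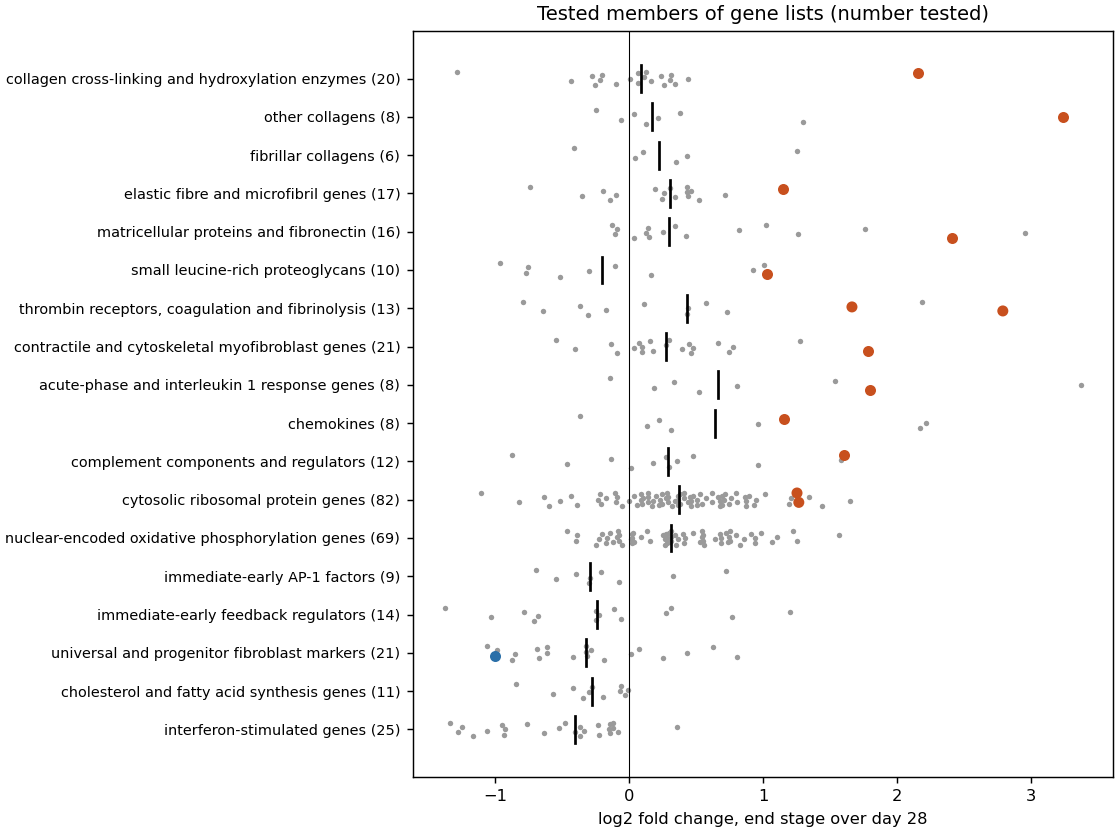
Log2 fold change of end stage over day 28 (horizontal axis) for each tested member of 18 gene lists (number tested in brackets), with the median as a bar and called members in orange (higher) or blue (lower). Most lists with a call hold a single called member, and the interferon and cholesterol lists lie almost wholly below 0.

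Over 43 pathway lists, 13 held at least 1 called gene and 30 held none, the medians of these 30 running from -0.45 to 0.35. Of the 24 called genes, 15 belonged to a list, and the lists held 714 of all tested genes (11.9%). The lists were drawn up with earlier results of these data known, so nothing is read from either count. The unfolded protein response list had 15 of 19 members positive and 0 called, with Hsp90b1, an endoplasmic reticulum chaperone, at 1.01 ± 0.36 (adjusted p 0.309). Runx1, a transcription factor of the RUNX family, reached 20.5 to 196 CPM at end stage and 0 to 48.6 CPM at day 28 with 2.44 ± 0.64 (adjusted p 0.0839), and 14 of 17 tested RUNX, TEAD and fibroblast identity factors were positive, with 0 called. Hmox1, heme oxygenase 1, stood at 12.8 to 219 CPM at end stage and 6.20 to 47.7 CPM at day 28 with 2.43 ± 0.68 (adjusted p 0.134). Mgp, matrix Gla protein, an inhibitor of calcification, was at 26731, 19092, 15408 and 5838 CPM in end stage libraries, against 7723, 1721, 3503, 4464 and 4168 CPM in day 28 libraries. Only end stage replicate 5 lay within the day 28 range, and the log2 fold change was 1.96 ± 0.45 (adjusted p 0.0742, not called). Rps20 and Ndufa6, a ribosomal and a respiratory chain gene, had 0.89 ± 0.24 (adjusted p 0.0839) and 1.07 ± 0.31 (adjusted p 0.134).

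Levels in the other groups are given as a description. Of the genes called higher, the end stage mean exceeded both the normal and the day 7 mean in 23 of 23 of them, and in 12 of 23 all 4 end stage libraries lay above all 15 libraries of the earlier stages, as they did in 21 of all tested genes (0.351%). The day 28 mean lay below the normal mean in 20 of 23 and above it in 3. These genes were chosen for being higher at end stage than at day 28, which favours high end stage and low day 28 means, so nothing is read from these counts. Of the 3009 tested genes with a higher mean at end stage than at day 28, called or not, the end stage mean exceeded both the normal and the day 7 mean in 52.9%, and the day 28 mean lay below the normal mean in 72.8%. End stage replicate 4 was the highest end stage library in 16 of 23 and the lowest in 0, replicate 5 the highest in 4, replicate 3 in 3 and replicate 2 in 0.

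Markers of other cells were summed in each library, red cells having been lysed during dissociation, per the labels. Summed erythrocyte markers were at 68.8, 1755, 774 and 596 CPM in end stage libraries and 397, 189.9, 68.2, 178 and 104 CPM in day 28 libraries. They were higher in end stage replicates 3 to 5 than in every day 28 library, while end stage replicate 2 lay within the day 28 range, and all 4 tested members were positive, 0 of them called (edgeR; 4 at an unadjusted p under 0.05). Hbb-bs, a β globin gene, had 2.56 ± 0.65 (adjusted p 0.0975) and Hba-a1, an α globin gene, 2.28 ± 0.64 (adjusted p 0.153), and reads of both can match near-identical copies. Sums were 1539 to 2415 CPM at end stage and 1994 to 2893 CPM at day 28 for mesothelial markers, 199.5 to 409.5 CPM at end stage and 248 to 492 CPM at day 28 for endothelial markers and 157 to 319 CPM at end stage and 143 to 503 CPM at day 28 for epithelial and ID8 markers. Schwann and neural markers summed to 286, 467, 141 and 165 CPM in end stage libraries and 604, 332, 304, 292 and 899.8 CPM in day 28 libraries, so that end stage replicates 2, 4 and 5 lay below every day 28 library, and 0 of the 3 tested members were called (edgeR; 0 at an unadjusted p under 0.05). T and NK cell, B cell and neutrophil markers, of which 1 of 13, 2 of 8 and 1 of 10 are in the table, reached at most 59.5 CPM in any library. The part of other cells in the called genes was not tested.

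**Figure D5:**
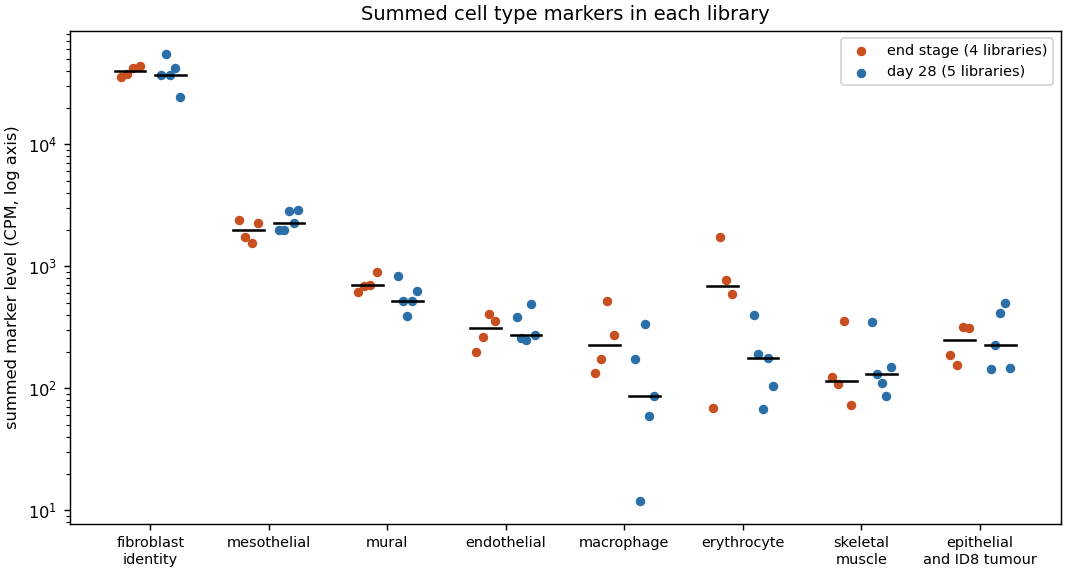
Summed CPM of marker genes (vertical log axis) in the 4 end stage (orange) and 5 day 28 (blue) libraries, with the median as a bar, for 8 cell types. The ranges of fibroblast identity markers overlap between the groups, and erythrocyte markers are higher in 3 of the 4 end stage libraries than in every day 28 library.

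In the authors' deposited table for the same comparison, 22 of the 24 genes had an adjusted p under 0.05, and Eln and Serpine2 had 0.0549. The authors' deposited table gives log2 fold changes of 2.15 for Lox, 2.77 for F2r, 3.22 for Col8a1 and -1.03 for Cd34. Under the deposited thresholds (adjusted p at most 0.1, absolute log2 fold change at least 0.58, highest count at least 30) that table holds 45 genes higher and 9 lower, which include all 24.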

How the data were processed

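MARS-seq libraries of sorted Col1a1-YFP peritoneal fibroblasts were analysed from raw gene counts deposited by the authors. Per the labels' protocols, polyA RNA of RIN above 8 was used after dissociation for 40 min at 37 °C. The submitters' processing notes name the genome build GRCm39 and DESeq2, without versions. How reads were aligned and counted, with which annotation, and how molecular identifiers were treated is not given in the sources used here. The authors deposited a log2 fold change and p-values (unadjusted and adjusted) for this comparison, which are quoted only where credited to that table, and a normalized signal (counts over a size factor per library) that was not used.

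Of 12799 genes, 5980 passed filterByExpr at a minimum count of 10; they held 93.2% to 94.9% of the counts. The quasi-likelihood test of edgeR 4.0.16, with TMM and robust fits, was run in 1 model of the 4 groups over all 19 libraries, contrast end stage minus day 28, calling genes under an adjusted p of 0.05 by Benjamini-Hochberg (R 4.3.3). The SE is the log2 fold change over the square root of F. The common biological coefficient of variation was 0.334. Alternatives used DESeq2 1.42.0, limma 3.58.1, other scalings, filters and depths, and left out libraries. Steps were tested on simulated data. Named genes were up to 15 called genes in each direction by log2 fold change (mean of at least 20 CPM, no overlap between groups, no predicted genes), up to 4 genes of each list by p, and 16 fixed genes. The gene lists, the rule and the marker genes Lox, F2r, Col8a1 and Cd34 were chosen with earlier results of these data known, so a count over a list is a description. No set tests were run. Of the called genes, 1 is not reported here by name. Total counts were 66061 to 2449339, and a count of 0 is read as up to 3 counts, which covers counting error only. Replicates of a group differed by more than sampling noise, with chi-square per degree of freedom of 3.02 to 14.6.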

Additional observations from a re-analysis of the deposited data

Results flagged for a closer look

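Within groups of 4 or 5 libraries, 16 of 187 checked sets of values had 1 library far from the rest by a Dixon test at 95%, a distance that chance gives in about 1 in 20 groups. At end stage, replicate 4 stood high for Col8a1 (512.6 CPM), Cpxm2 (371.9 CPM) and Ccn2 (2632 CPM), and replicate 3 for Gm13292 (151.4 CPM) and Dusp1 (1645 CPM). At day 28, replicate 4 stood high for Serpina3n (297.3 CPM) and Slc16a3 (37.83 CPM), replicate 5 for Tnfrsf11b (12.74 CPM, the 1 day 28 library with any count), replicate 3 for H2-Ab1 (341 CPM) and low for Cthrc1 (24.8 CPM), and replicate 1 high for Cplx2 (190.7 CPM). Among summed markers, T and NK cell markers stood apart in end stage replicate 2 (24.08 CPM), neutrophil markers in end stage replicate 5 (9.164 CPM) and day 28 replicate 4 (59.45 CPM), B cell markers in day 28 replicate 2 (11.87 CPM), and skeletal muscle markers in day 28 replicate 1 (349.6 CPM). T and NK cell and neutrophil markers rest on 1 gene each. The neutrophil value of end stage replicate 5 and the B cell value of day 28 replicate 2 lie below the floor of 3 counts. That floor is 27.49 CPM in end stage replicate 5 and 35.61 CPM in day 28 replicate 2, so nothing is read from these 2 flags. For Tnfrsf11b the other day 28 libraries had floors of 16.21 to 47.67 CPM, all above the flagged value. The floor of day 28 replicate 1, 47.67 CPM, also lay above the flagged Slc16a3 value. For T and NK cell markers the floor of end stage replicate 5 lay above the flagged value. Nothing is read from these flags either.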

How the results depend on the processing

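The counts of called genes (23 higher, 1 lower) moved with tool, depth and library, and no called gene changed sign under any alternative. Of the 24 called genes, 1 (Lox) was called in every fit. Apart from the leave-one-out fits there were 13 alternatives. The calls kept least often in these were those of Serpine2 (3 of 13), Rpl17 (4), Acp5 and Ccn2 (5 each) and Cilp and Eln (6 each). A gene that the filter of an alternative removed counts there as not called. DESeq2 called 42 higher and 15 lower, including all 24; limma-voom 13 and 2; no filter 43 and 1; a minimum count of 30, 15 and 2; thinning every library to at most 200000 counts, 14 and 1. Leaving out the 3 libraries under 150000 counts gave 9 and 0; leaving out day 28 libraries 1 and 2, chosen after seeing the data, 10 and 0; the 2 groups alone, 16 and 0. The authors' own thresholds gave 45 and 9, and their adjusted p under 0.05 gave 27 and 6. Leaving out 1 library at a time gave 5 to 44 genes higher and 0 to 9 lower; the cause was not tested. Scaling by DESeq2 size factors gave 17 and 1, by library size 16 and 1, without the ribosomal RNA gene Rn18s-rs5, 18 and 1, and the log2 fold change limit of 1 gave 23 and 1. With the replicate number as a block, 22 genes were higher and 4 lower, 20 of these 26 shared with the 24. Between libraries of the same number, deviations from the group mean correlated at -0.324, 0.179, 0.0668 and -0.0599 for replicates 2 to 5. End stage replicate 3 was matched best by day 28 replicate 3, and end stage replicates 2, 4 and 5 by day 28 replicates of another number. So few values cannot show whether libraries of the same number shared a batch or handling. The log2 fold change of Egr1 was 0.0496 without day 28 libraries 1 and 2, with its sign turned. The log2 fold change of H2-Ab1 ran from -0.804 to 0.288 when 1 library was left out, positive without day 28 replicate 3. Neither was called. Depth limited genes near the floor of 3 counts, such as Tnfrsf11b, Slc16a3 and Acp5, and the day 28 values of Col8a1 and F2r.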

Other observations

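Beyond the called genes, 32 genes had an adjusted p from 0.05 to 0.1 (edgeR), 23 higher and 9 lower. With predicted genes left aside, the groups did not overlap in 19 of them, 13 higher and 6 lower. Over all tested genes, predicted ones included, the share without overlap was 3.11%. Genes with a low p tend to have separate groups, so nothing is read from this count. The genes named here were chosen after their values were seen. Nrp1, a co-receptor for VEGF and semaphorins, stood at 113.5, 87.3, 88.3 and 73.3 CPM in end stage libraries, against 15.9, 23.7, 31.0, 16.2 and 40.8 CPM in day 28 libraries, with a log2 fold change of 1.68 ± 0.41 (adjusted p 0.0566). Tuba1c, an α tubulin, had 1.61 ± 0.40 (adjusted p 0.063), and Ndufa4l2, a mitochondrial protein known from hypoxia, 1.28 ± 0.33 (adjusted p 0.0784).

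On the lower side, Dnm1, the endocytic GTPase dynamin 1, stood at 148, 149, 106 and 119.1 CPM in end stage libraries, against 318, 178, 316, 351 and 275 CPM in day 28 libraries, with -1.15 ± 0.31 (adjusted p 0.0839). Cplx2, complexin 2, a regulator of vesicle fusion, had -2.04 ± 0.53 (adjusted p 0.0784), and Mlycd, malonyl-CoA decarboxylase of fatty acid metabolism, -1.71 ± 0.46 (adjusted p 0.0839). Summed Schwann and neural markers, listed with the other cell types, were also lower in end stage replicates 2, 4 and 5 than in every day 28 library, and their part in the values of Dnm1 and Cplx2 was not tested.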
